A study of Mus musculus with 4 samples.

Results

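The 9 genes described here make, carry, bind, break down or answer to retinoic acid in the mouse testis: Rbp4, Stra6, Rdh10, Aldh1a1, Aldh1a2, Crabp1, Crabp2, Cyp26b1 and Stra8. They were chosen by symbol from the 55450 genes of the deposited files, and all 9 were found, each under 1 identifier. The data were droplet single-cell RNA counts of dissociated testis, with 2 libraries for the high-fat diet (HFD) and 2 for the normal diet (ND), and the series asks how testis cells differ between the diets. Every group was testis digested with collagenase IV, dispase II and DNase. The labels name the diet and the tissue. Strain, genotype, age and the length of the diet are not given in the sources used here. No label ties a library to its own mouse, so the p-values below measure the spread between these libraries, which may be technical.

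Retinol travels in blood bound to RBP4 and enters cells through the membrane receptor STRA6. RDH10 oxidises it to retinal, and ALDH1A1 and ALDH1A2 oxidise retinal to retinoic acid, which CRABP1 and CRABP2 bind in the cytoplasm and CYP26B1 breaks down. Retinoic acid binds receptors of the RAR family, which sit on DNA with RXR partners at pairs of short motifs. In the testis it is required for spermatogonia to differentiate and for germ cells to enter meiosis, and Stra8 is the classic gene that it switches on at those steps.

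After filtering, 54916 cells remained, between 13122 and 14467 per library, from libraries of 143748262 to 154221188 unique molecular identifiers (UMIs, each standing for 1 captured RNA molecule). The median kept cell had between 5511 and 5946 UMIs, and pairs of libraries shared between 42 and 65 barcodes. Cells were clustered from 5 random starts without the 9 genes and without the other retinoid genes described below. Clusters were named from marker genes, so each class is called by its likeness, and a cell took the class given by at least 3 of the 5 starts. There were 12 named classes, and 44.6% of cells (41.4% to 48.5% by library) stayed unnamed. The starts agreed in full for 79.8% of cells. Of the 12 classes, pachytene-like and later spermatocytes varied most in number, from 2328 to 5535 cells by start, and round-spermatid-like cells had the smallest share given their class by every start, 78.7%. Sertoli-like cells were not pure, with a summed level of 10 elongating spermatid markers of 72972 to 90404 CPM (UMIs of a gene scaled to a common total of UMIs). Peritubular myoid cells were not separated from fibroblast-like cells, where all 7 of their markers were detected. The Leydig-like class held 81 cells of HFD 1, of 313 from that library, that 1 of the starts left out, against 8, 2 and 38 cells from HFD 2, ND 1 and ND 2. Results on Leydig-like cells are therefore given for that single start as well.

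All 9 genes are protein-coding, and their positions were read from GENCODE M21 on GRCm38. Rbp4 lies on chromosome 19 from 38116629 to 38125281 on the minus strand, and Aldh1a1 lies on the same chromosome from 20492715 to 20643465 on the plus strand. Stra6 (58063788 to 58153996), Aldh1a2 (71215789 to 71296243) and Crabp1 (54764748 to 54773110) are on the plus strand of chromosome 9. Rdh10 is on chromosome 1 (16105774 to 16133734), Crabp2 on chromosome 3 (87948666 to 87953376) and Stra8 on chromosome 6 (34920163 to 34939344), all on the plus strand. Cyp26b1 is on the minus strand of chromosome 6 (84571414 to 84593908). Stra6 overlaps 2 other genes, Ccdc33 and Gm16131. One of them, not told apart here, is on the strand of Stra6 and the other on the opposite strand, so the UMIs of Stra6 may not all be its own. Aldh1a1 and Aldh1a2 overlap other genes on the opposite strand alone. Aldh1a1 has a close paralog, Aldh1a7, and how reads matching both were assigned is not given in the sources used here.

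Retinoic acid receptors bind 6-base motifs, usually in pairs, so the promoters of the 9 genes were searched on both strands for the consensus motif AGGTCA, for the variant AGTTCA, for the variant GGGTCA and for the variant GGTTCA. RefSeq promoters on GRCm38.p6, each 300 bases long with 250 before and 50 after the start, were found for 7 of the 9 genes, with 12 windows in all. There was no entry for Rdh10 or Crabp2. The search found 5 matches, in Rbp4, Stra6, Aldh1a1 and Stra8, and all 5 are shown with 12 bases on each side, because they are the matches to these motifs in the windows searched. The windows of Cyp26b1, Crabp1 and Aldh1a2 held none. Capitals mark the motif, read along the gene's strand, so TGACCC is GGGTCA on the opposite strand.
Rbp4, chr19:38125357-38125386, minus strand: aagaataaatatTGACCCaaacagcaccac
Stra6, chr9:58134078-58134107, plus strand: gcaggcaggcgaAGTTCAtcttctcccagg
Aldh1a1, chr19:20601907-20601936, plus strand: ccgatatgcaaaTGACCCttagtgcatgca
Stra8, first match, chr6:34920742-34920771, plus strand: gatggggtgaaaAGGTCAtcttgctccttc
Stra8, second match, chr6:34920898-34920927, plus strand: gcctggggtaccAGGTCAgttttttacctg

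The Stra8 matches begin 194 and 38 bases before the RefSeq start and lie in an exon that GENCODE annotates as 5′ UTR. The Rbp4 match begins 53 bases before the start, outside the annotated gene, and the Aldh1a1 match begins 49 bases before it, inside the annotated gene but in no exon. The Stra6 match lies 16 bases after the start, in an annotated UTR exon. Single matches are common: 43.7% of 32817 promoters of the same length hold at least 1 of the 4 motifs, and 16.3% hold AGGTCA. A promoter with 2 copies of AGGTCA on 1 strand, as in Stra8, is less common at 1.10%. No member window held a pair of motifs spaced by 1, 2 or 5 bases, the spacings searched, which 0.222%, 0.268% and 0.0975% of all windows held. A match is only a run of letters and does not show that a receptor binds there.

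The heat map of mean levels sets all 9 genes beside each other. Levels between classes are in CPM of the plain class total, as means with the SD over the 4 libraries. The classes were made from these same cells, so the levels are a description and were not tested.

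**Figure D1:**
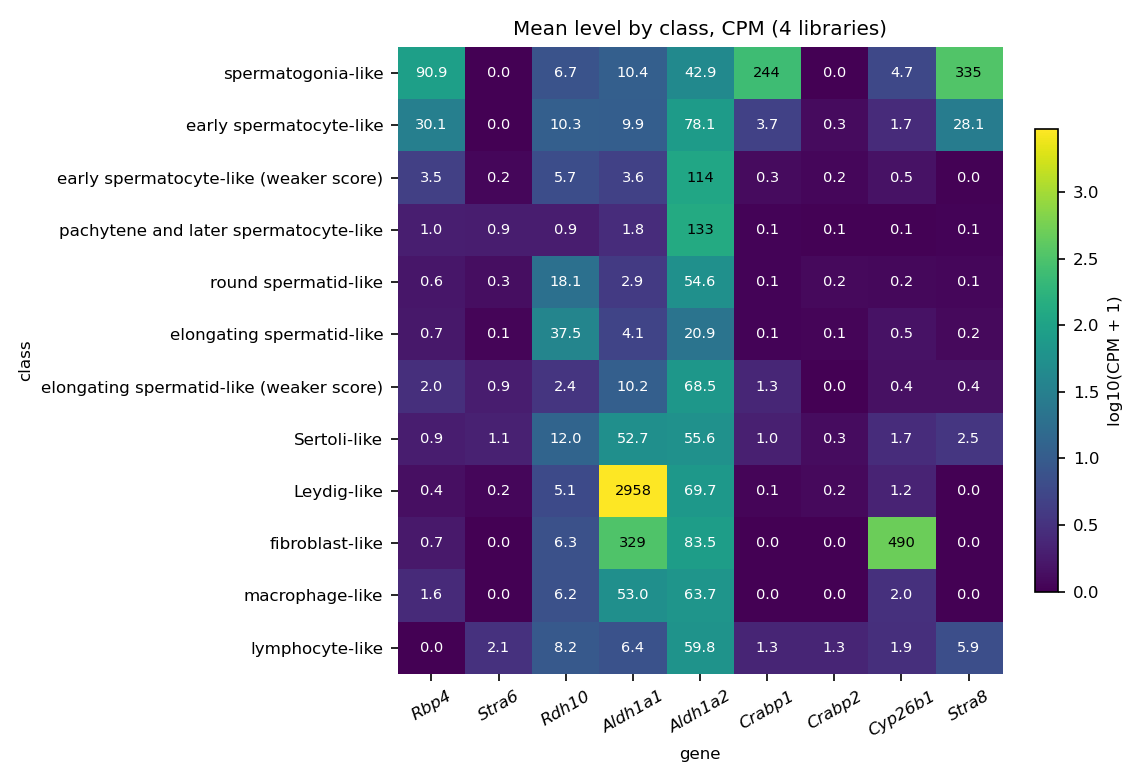
Heat map of the mean level of the 9 genes (columns) in the 12 named cell classes (rows), in CPM of the plain class total over 4 libraries, with the value in each cell and colour for log10(CPM + 1). Aldh1a1 stands highest in Leydig-like cells at 2958 CPM, Cyp26b1 in fibroblast-like cells at 490 CPM and Stra8 and Crabp1 in spermatogonia-like cells at 335 and 244 CPM, while Aldh1a2 is seen in every class.

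The transport genes were both low over the whole testis. Rbp4, the blood carrier of retinol, was highest in spermatogonia-like cells at 90.9 CPM (SD 18.9, n = 4 libraries). By library the level there was 89.3 CPM in HFD 1 and 117 in HFD 2, beside 86.1 in ND 1 and 71.7 in ND 2. Early-spermatocyte-like cells followed at 30.1 CPM (SD 10.9), below every spermatogonia-like value, and the mean of every other class was 3.54 CPM or less. The 3 genes most like Rbp4 over the 12 classes were Gm43409, Pou4f1 and Mageb4, with a Pearson correlation of log2 levels of 0.96 for Gm43409.

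Stra6, the uptake receptor, was barely detected, with 266 UMIs in all 4 libraries. Of these, 66 were in pachytene-like and later spermatocytes and 61 in round-spermatid-like cells, at 0.89 and 0.34 CPM, and 116 were in unnamed cells. In fibroblast-like, macrophage-like, spermatogonia-like and early-spermatocyte-like cells it had 0 UMIs, which allows up to 3.20 to 12.3 CPM per library and class for counting error alone. Sertoli-like cells had 1.08 CPM, from 1 and 4 UMIs in the HFD libraries and 0 and 2 in the ND ones. The highest mean of Stra6, 2.09 CPM in lymphocyte-like cells, came from 2 UMIs. The genes most like it, Sytl3, Skap1 and Trdc, follow that value and reached a correlation of 0.80 at most.

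The synthesis genes fell into different compartments. Rdh10, which makes retinal from retinol, was highest in elongating-spermatid-like cells at 37.5 CPM (SD 2.81), with 34.8 CPM in HFD 1 and 35.5 in HFD 2, beside 40.4 in ND 1 and 39.5 in ND 2. Round-spermatid-like cells followed at 18.1 CPM (SD 1.18), below every library of the first class. Elongating-spermatid-like cells held 35.3% of its UMIs and round-spermatid-like cells 50.3%. Sertoli-like cells, with 12.0 CPM (SD 4.62), lay below every round-spermatid-like value, and their range overlapped that of the next class, early-spermatocyte-like cells. That level was 32.0% of the elongating-spermatid-like one, while the 10 elongating spermatid markers stood in Sertoli-like cells at 36.7% to 107% of theirs, so no expression of Rdh10 is read into Sertoli-like cells. Rdh10 stood above all 10 markers in early-spermatocyte-like cells of the stronger score (27.3% against at most 21.7%) and the weaker score (15.2% against at most 7.03%). It also did, narrowly, in spermatogonia-like cells (17.7% against at most 16.3%), from 3 and 1 UMIs in HFD and 2 in each ND library. In the remaining classes, round-spermatid-like cells included, it lay inside the markers' range. The lowest level of Rdh10 was in pachytene-like and later spermatocytes, at 0.90 CPM (SD 0.21).

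Within the spermatid-like classes the level of Rdh10 was far from even. In the clusters of 1 start it reached 105 and 98.8 CPM in 2 elongating-spermatid-like sub-clusters and 92.1 CPM in a round-spermatid-like one of the same parent cluster. It was 3.01 CPM in the most populous elongating-spermatid-like cluster, of 3090 cells, and 6.84 CPM in the most populous round-spermatid-like one, of 3152 cells. Most like Rdh10 over the 12 classes were Pdpk1, Fam8a1 and Mrps36, with a correlation of 0.96 for Pdpk1.

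Aldh1a1, which makes retinoic acid from retinal, was a Leydig gene in these data. Its level in Leydig-like cells was 2958 CPM (SD 407), with 2362 CPM in HFD 1 and 3276 in HFD 2, beside 3135 in ND 1 and 3058 in ND 2. HFD 1 stood below the other 3 libraries, and in the Leydig-like cells of the single start its value was 3020 CPM, beside 3420, 3211 and 3176. The class mean was 8.99-fold that of the next class, fibroblast-like cells, at 329 CPM (SD 25.7). Leydig-like cells were 2.53% of the cells and held 85.2% of all Aldh1a1 UMIs (82.4% to 88.7% by library). At least 1 Aldh1a1 UMI was found in 85.9% to 95.7% of them, and in 63.6% to 85.9% after every cell was thinned to 1000 UMIs. In the clusters of the single start, the Leydig-like ones lay between 2171 and 4713 CPM except 1 cluster of 163 cells led by Malat1 and Meg3, which had 715 CPM. Among the genes most like Aldh1a1 over the 12 classes were Gstm1 and Acsbg1, the first with a correlation of 0.997.

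Free RNA can place a Leydig transcript in other cells, so the level of Aldh1a1 elsewhere was set beside that of the 8 Leydig markers, each as a percent of its own Leydig level. In fibroblast-like cells Aldh1a1 stood at 11.1%, and the markers at 0.234% to 3.15%. In Sertoli-like cells it stood at 1.78%, against at most 0.517% for any marker. The Aldh1a1 level was thus above all 8 markers in those classes, also without the top cell of each library. In macrophage-like cells it stood at 1.79%, against 0% to 1.40%, but 1 cell held 21 of the 29 UMIs of HFD 1. Without the top cell of each library these values were 1.07% and 0% to 0.977%, so macrophage-like expression is not read from them. In lymphocyte-like and germ-cell-like classes it lay within the markers' range, or just above it at 0.345% against 0.340% in elongating-spermatid-like cells of the weaker marker score, and it is not read as expression there.

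Aldh1a2, the other enzyme that makes retinoic acid, was highest among the named classes in pachytene-like and later spermatocytes at 133 CPM (SD 2.94), with 129 CPM in HFD 1 and 133 in HFD 2, beside 136 in ND 1 and 135 in ND 2. Early-spermatocyte-like cells with the weaker marker score followed at 114 CPM (SD 2.55), below every pachytene-like value. This gap depends on how the classes are made. The 2 means were 126.4 and 125.9 CPM with 1 random start, and 138.0 and 135.8 CPM with doublets kept. Early-spermatocyte-like cells of the stronger score had 78.1 CPM (SD 13.5). The level was 54.6 CPM (SD 1.01) in round-spermatid-like cells, 42.9 CPM in spermatogonia-like cells and 20.9 CPM (SD 3.20) in elongating-spermatid-like cells, the lowest of the 12 classes. Unnamed cells had 144 CPM (SD 2.34) and held 50.7% of the Aldh1a2 UMIs. Among them was a cluster of 4081 deep cells with markers of both early and pachytene-like spermatocytes and 171 CPM. Pachytene-like and round-spermatid-like cells held 19.0% of the UMIs each.

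The 5 somatic classes had an Aldh1a2 level of 41.6% to 62.6% of that in pachytene-like cells. In each of them this lay inside the range of the 9 pachytene markers, which was 18.5% to 52.7% in Leydig-like cells beside 52.2% for Aldh1a2. Without the top cell of each library Aldh1a2 stood at 51.0% in Leydig-like cells, just above the markers, the highest of which was at 49.5%, and stayed inside their range in the other 4 classes. No expression of Aldh1a2 is read into the somatic classes from values this close. Closest to Aldh1a2 over the 12 classes were Mydgf, Sdhaf4 and Ndufb5, with a correlation of 0.98 for Mydgf.

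Aldh1a2 and Rdh10 ran in opposite directions over the pachytene-like, round-spermatid-like and stronger-scoring elongating-spermatid-like classes, as the plot of germ-cell levels shows. From pachytene-like to elongating-spermatid-like cells, Aldh1a2 went from 133 to 20.9 CPM and Rdh10 from 0.90 to 37.5 CPM. The libraries of these classes did not overlap for either gene. Elongating-spermatid-like cells of the weaker score differed from those of the stronger one, with 68.5 CPM of Aldh1a2 and 2.41 CPM of Rdh10, the latter from 5 UMIs. Over the 12 classes the Pearson correlation of their log2 levels was -0.79, given as a description, since classes share libraries and free RNA.

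**Figure D2:**
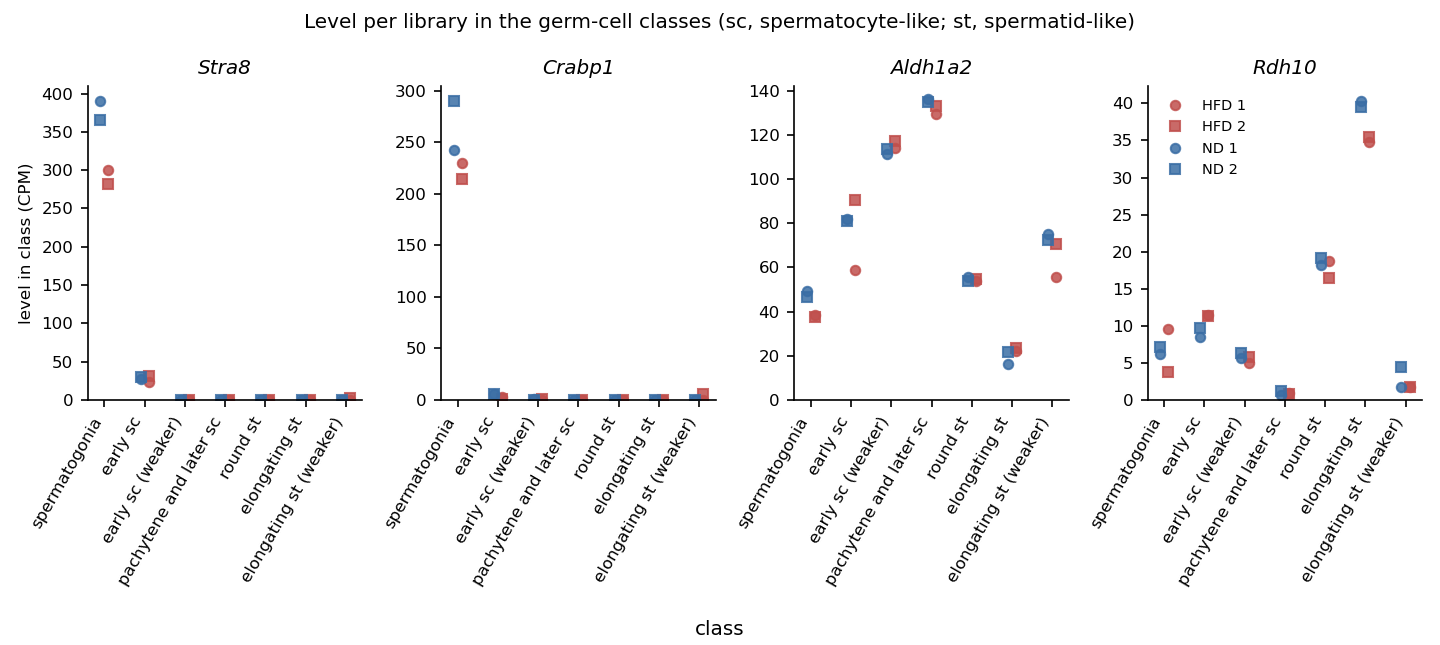
Level per library, in CPM of the plain class total, of Stra8, Crabp1, Aldh1a2 and Rdh10 (panels) in the 7 germ-cell-like classes, with colour for the diet and shape for the library number. Stra8 and Crabp1 are high in spermatogonia-like cells, Aldh1a2 peaks in pachytene-like and later spermatocytes at 133 CPM on average, and Rdh10 in elongating-spermatid-like cells at 37.5 CPM.

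Of the genes whose proteins bind retinoic acid, Crabp1 was found mostly in spermatogonia-like cells and Crabp2 was barely detected. Crabp1 stood at 244 CPM (SD 32.7) in spermatogonia-like cells, with 230 CPM in HFD 1 and 215 in HFD 2, beside 243 in ND 1 and 290 in ND 2, and the next class mean was 3.71 CPM. These cells were 0.39% of all cells and held 77.0% of the Crabp1 UMIs (71.2% to 82.8% by library). At least 1 UMI was found in 46.9% to 67.4% of them, and in 16.3% to 25.0% after thinning to 1000 UMIs (median depth 4356 to 6312.5 UMIs by library). In Leydig-like cells (5532 to 6294 UMIs) and Sertoli-like cells (2351 to 3385 UMIs) at most 0.256% and 0.567% had a Crabp1 UMI before thinning. Closest to Crabp1 were Cbx2, Trim71 and D330045A20Rik, with a correlation of 0.99 for Cbx2. Crabp2 had 87 UMIs in all, 37 of them in round-spermatid-like cells, and its highest class mean, 1.28 CPM, rested on 1 UMI.

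Cyp26b1, which breaks retinoic acid down, marked the fibroblast-like class. Its level there was 490 CPM (SD 170), with 342 CPM in HFD 1 and 425 in HFD 2, beside 733 in ND 1 and 460 in ND 2, and the next class mean was 4.73 CPM. These cells were 0.73% of all cells and held 77.1% of the Cyp26b1 UMIs (75.4% to 79.9%). After thinning to 1000 UMIs, 30.7% to 43.4% of them had a UMI, against at most 0.319% of Leydig-like cells. The level was uneven inside the class, at 956, 657, 244 and 163 CPM in the 4 fibroblast-like sub-clusters of the single start. The genes most like Cyp26b1 were Cdc42ep2, Avpr1a and Fhl2, with a correlation of 0.98 for Cdc42ep2.

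Stra8, the response gene, was highest in spermatogonia-like cells at 335 CPM (SD 51.6), with 300 CPM in HFD 1 and 283 in HFD 2, beside 390 in ND 1 and 365 in ND 2. Early-spermatocyte-like cells followed at 28.1 CPM (SD 3.76), and there 1 sub-cluster of 147 cells stood at 189 CPM. The mean of every other class was 5.85 CPM or less. Spermatogonia-like cells held 66.7% of the Stra8 UMIs (61.1% to 74.6%). Stra8 and Crabp1 were thus highest in the same class, and stages of spermatogonia within it were not compared. Closest to Stra8 were Tex13b, Rhox13 and Map7d2, with a correlation of 0.99 for Tex13b.

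The diets were compared first over the whole testis, with the UMIs of all kept cells summed per library. Levels of single genes by library are from here on CPM scaled with TMM factors, while summed marker levels and highest class levels stay in CPM of the plain total of the library or class. In whole-testis sums, fewer cells of a type and less RNA per cell cannot be told apart. By edgeR's quasi-likelihood test with Benjamini-Hochberg adjustment over 25470 genes, 5 of the 9 genes changed, 1 higher and 4 lower in HFD. The same test called 34.3% of all genes, 15.3% higher and 18.9% lower. The median log2 ratio of HFD over ND was -0.37 over the 9 genes and -0.02 over all genes.

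**Figure D3:**
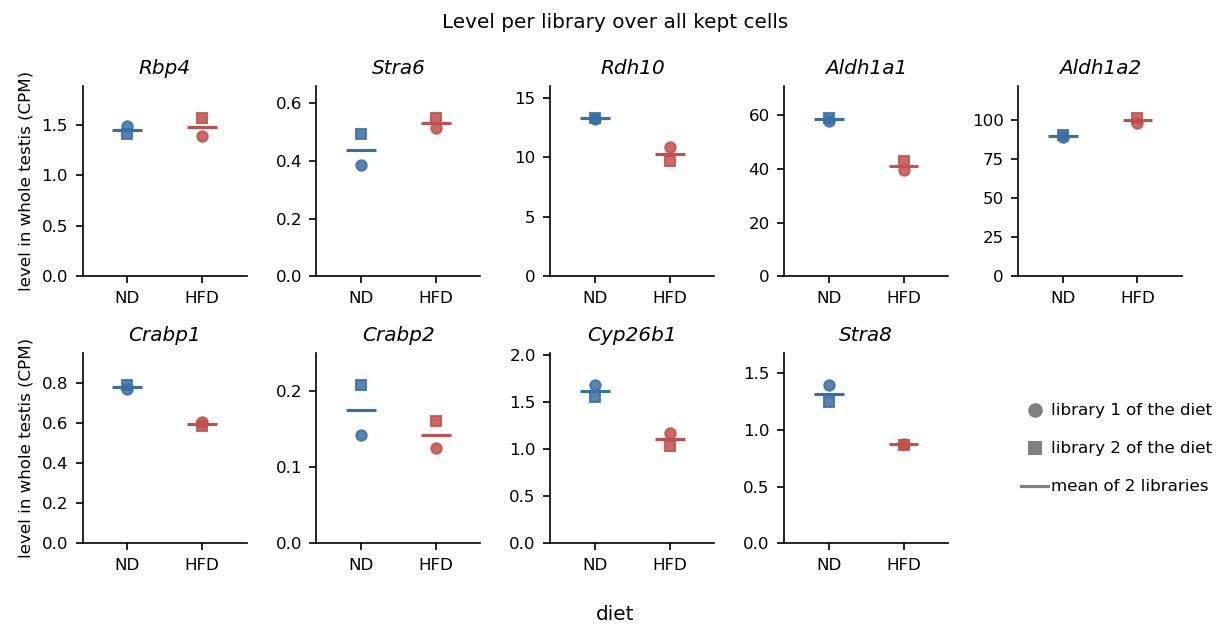
Whole-testis level of each of the 9 genes (panels, each with its own axis from 0) in the 4 libraries, in TMM-scaled CPM, with a point per library and a line at the mean of the 2 libraries of a diet. Aldh1a1, Rdh10, Cyp26b1 and Stra8 lie lower in both HFD libraries than in both ND libraries, and Aldh1a2 lies higher.

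Aldh1a1 was at 39.5 and 42.8 CPM in HFD 1 and HFD 2 and at 57.9 and 58.9 CPM in ND 1 and ND 2. The diets were well apart, and Aldh1a1 fell by 0.51 on the log2 scale (SE 0.046; edgeR adjusted p 6.44e-06; lower in 2 of 2 HFD libraries). Rdh10 was at 10.8 and 9.72 CPM in HFD and 13.2 and 13.3 CPM in ND, and it fell by 0.37 (SE 0.060; edgeR adjusted p 0.000324). Aldh1a2 was the gene that rose, from 89.0 and 90.6 CPM in ND to 97.9 and 101 CPM in HFD, by 0.15 (SE 0.040; edgeR adjusted p 0.0094). Without HFD 2 its adjusted p was 0.101. The enzymes that make retinoic acid thus did not move together in the whole testis.

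Cyp26b1 was at 1.17 and 1.04 CPM in HFD and 1.68 and 1.56 CPM in ND, and it fell by 0.55 (SE 0.126; edgeR adjusted p 0.00367). The lowest UMI count of a deposited barcode was 1638 and 1468 in HFD and 1141 and 1171 in ND. A common floor of 1638 UMIs per cell removes 6374 cells, none of them from HFD 1. It leaves 13122 and 12486 cells in HFD, of 13122 and 13502, and 11594 and 11340 in ND, of 14467 and 13825. With this floor the ratio of Cyp26b1 was -0.23 and the edgeR adjusted p 0.236. Stra8 was at 0.875 and 0.869 CPM in HFD and 1.40 and 1.24 CPM in ND, and it fell by 0.60 (SE 0.134; edgeR adjusted p 0.00318). Crabp1, with 87 and 80 UMIs in the HFD libraries and 102 and 106 in the ND ones, did not pass, with a log2 ratio at -0.39 (SE 0.154; edgeR adjusted p 0.0642), and with the common floor it did, at -0.42 (edgeR adjusted p 0.0448). Rbp4, Stra6 and Crabp2 had log2 ratios of 0.03, 0.28 and -0.30, with edgeR adjusted p of 0.878, 0.282 and 0.498.

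The makeup of the libraries differed between the diets in several of the classes that hold these genes. The lowest UMI count of a cell also differed between the diets, so shares of cells cover unlike ranges of depth. Leydig-like cells, where most Aldh1a1 UMIs lay, were 2.39% and 1.97% of cells in HFD and 2.70% and 3.08% in ND. In the single start they were 1.78% and 1.92% against 2.69% and 2.81%, and with the common floor of UMIs 2.39% and 2.10% against 3.25% and 3.47%. The summed whole-testis level of the 8 Leydig markers was 340 and 341 CPM of the plain total in HFD and 563 and 505 CPM in ND, lower in HFD as Aldh1a1 was. Pachytene-like and later spermatocytes held 15.9% and 16.4% of the UMIs in HFD and 10.7% and 11.5% in ND. Round-spermatid-like cells held 29.3% and 28.3% in HFD and 36.7% and 36.6% in ND, and unnamed cells 36.1% and 36.4% against 30.5% and 30.7%. Elongating-spermatid-like cells, where Rdh10 was highest, held 10.5% and 10.0% of the UMIs in HFD and 12.4% and 11.2% in ND, lower in HFD as Rdh10 was. Spermatogonia-like cells were 0.35% and 0.36% of cells in HFD and 0.48% and 0.38% in ND, and their shares of UMIs overlapped, at 0.216% and 0.195% against 0.246% and 0.208%. Fibroblast-like cells, which hold most Cyp26b1 UMIs, overlapped between the diets in their share of cells, 0.770% and 0.652% in HFD and 0.733% and 0.767% in ND, and in their share of UMIs. With the common floor, under which Cyp26b1 did not pass, they were 0.770% and 0.601% of cells in HFD and 0.457% and 0.582% in ND, higher in both HFD libraries. The summed whole-testis level of the 8 fibroblast markers was 10.2 and 10.1 CPM of the plain total in HFD and 13.4 and 15.3 CPM in ND, lower in HFD as Cyp26b1 was. The part of these shares and sums in the whole-testis differences was looked at with the calculation that follows and otherwise not tested.

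Whole-testis levels were then recomputed with every class, the unnamed cells included, given the same share of UMIs in every library and the level of each gene within each class left as measured. This calculation has no test, was added after the data had been seen and uses the plain totals. It does not equalise the makeup inside a class. The unnamed cells, a mixture that held 50.7% of the Aldh1a2 UMIs, count as a single class. So do fibroblast-like cells with the peritubular myoid cells among them. Inside such a class, makeup and level cannot be told apart by this calculation. The log2 ratio of Aldh1a2 went from 0.14 to 0.004 with equal shares, and it was 0.14 with equal levels and the shares as measured. That of Aldh1a1 went from -0.51 to -0.14, or to -0.02 with the classes of the single start, and the diets then overlapped. With equal levels it was -0.35. Rdh10 went from -0.38 to -0.15 with equal shares and had -0.23 with equal levels. Cyp26b1 stayed near its observed value, from -0.56 to -0.58 with equal shares, and had 0.005 with equal levels. Stra8 had -0.44 and -0.16, and Crabp1 had -0.29 and -0.12. Single libraries weigh on these values. With equal shares Aldh1a1 had 0.05 without HFD 1 and -0.36 without HFD 2, Cyp26b1 had -0.32 without ND 1, and Crabp1 had -0.17 without ND 2. With equal levels the ratios without 1 library lay between -0.49 and -0.22 for Aldh1a1, -0.21 and 0.19 for Cyp26b1, -0.25 and -0.07 for Stra8, and -0.21 and -0.02 for Crabp1.

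**Figure D4:**
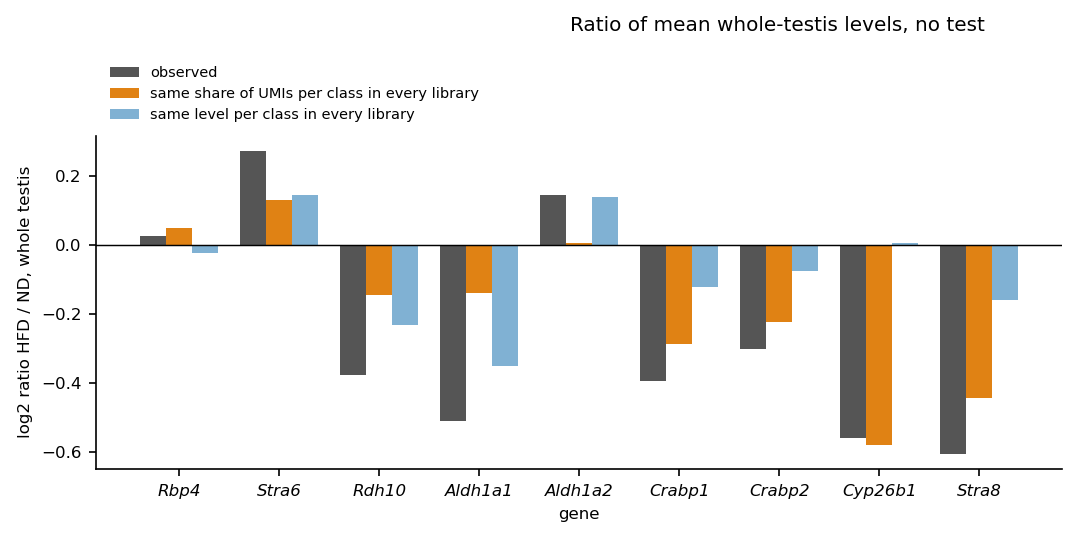
Log2 ratio of mean whole-testis levels, HFD over ND, for each of the 9 genes (no test), as observed, with the same share of UMIs per class in every library, and with the same level per class in every library. With equal shares the bar of Aldh1a2 nearly vanishes at 0.004, while that of Cyp26b1 stays at -0.58 (-0.32 without ND 1). Unnamed cells count as a single class, and the makeup inside a class is not equalised.

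Within the 12 classes, 40 of 108 pairs of gene and class had enough UMIs to be tested, and the other 68 did not pass the filter on low counts. By edgeR's quasi-likelihood test with adjustment over all genes of the class, 1 pair passed. In elongating-spermatid-like cells 1 of 4 tested genes changed, and the test called 6.96% of all genes there, 3.66% higher and 3.29% lower. In the other 11 classes edgeR called 0 of 36 pairs, 5 of which had an unadjusted p under 0.05. Among all genes tested, 266 of 5526 in weaker-scoring elongating-spermatid-like and 2238 of 12049 in Leydig-like cells had such an edgeR p. The shares of the remaining classes lay between these. DESeq2 called 0 of the 27 pairs to which it gave an adjusted p. Of all genes, edgeR called 1.49% in round-spermatid-like, 1.46% in weaker-scoring early-spermatocyte-like, 1.38% in macrophage-like, 0.847% in Leydig-like and 0.593% in fibroblast-like cells. It called 0.28% in pachytene-like, 0.119% in lymphocyte-like, 0.0669% in Sertoli-like and 0.0181% in weaker-scoring elongating-spermatid-like cells, and 0% in spermatogonia-like and early-spermatocyte-like cells.

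**Figure D5:**
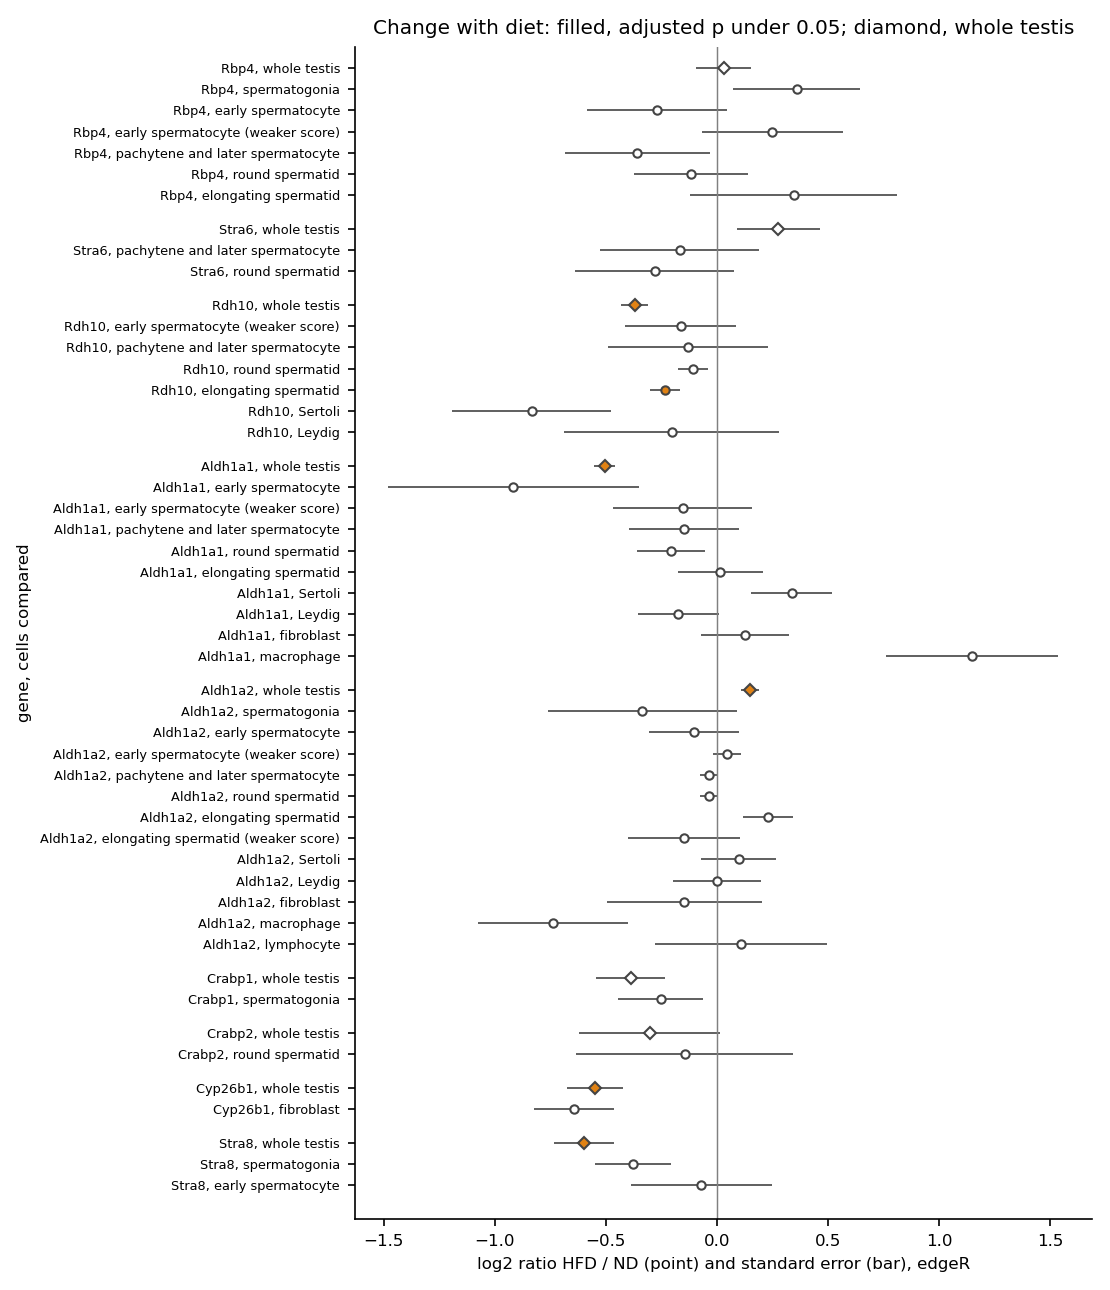
Log2 ratio of HFD over ND (point) with its standard error (bar) by edgeR for each gene in the whole testis (diamonds) and in the classes where it was tested (circles), filled where the adjusted p was under 0.05. Of the circles, that of Rdh10 in elongating-spermatid-like cells is filled, at -0.23.

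The pair that passed was Rdh10 in elongating-spermatid-like cells, the class where its level was highest. It was at 34.6 CPM in HFD 1 and in HFD 2 and at 40.9 and 40.4 CPM in ND 1 and ND 2. The diets were apart, and Rdh10 fell by 0.23 on the log2 scale (SE 0.067; edgeR adjusted p 0.0435; lower in 2 of 2 HFD libraries). The call was marginal: the adjusted p lay between 0.0358 and 0.263 over the alternatives, DESeq2 gave 0.156, and without HFD 1, HFD 2 or ND 1 edgeR gave 0.200, 0.220 and 0.0683. In the same cells the summed level of the 8 round spermatid markers was 618 and 641 CPM in HFD and 719 and 663 CPM in ND, and that of the 9 pachytene markers 1132 and 1175 CPM against 937 and 988 CPM. The round spermatid sum was lower in HFD, as Rdh10 was, and the pachytene sum higher, and their part in the difference was not tested. The 10 elongating spermatid markers summed to 171589 and 164411 CPM in HFD and 172601 and 174678 CPM in ND, also lower in HFD. In round-spermatid-like cells Rdh10 had 18.6 and 16.3 CPM in HFD and 18.3 and 19.3 CPM in ND, so the diets overlapped, with a ratio of -0.11 (edgeR adjusted p 0.464). In Sertoli-like cells it had 9 and 18 UMIs in the HFD libraries and 26 and 28 in the ND ones, a ratio of -0.83 (edgeR adjusted p 0.560). A single Sertoli-like cell held 10 of the 18 UMIs of HFD 2, and over the alternatives the ratio lay between -1.44 and -0.42. The elongating spermatid markers in those Sertoli-like cells summed to 77797 and 81600 CPM in HFD and 90404 and 72972 CPM in ND, overlapping between the diets. The change in elongating-spermatid-like cells was not shown to differ from that in any of 5 other classes (edgeR interaction term, adjusted p 0.692 to 0.965).

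Aldh1a1 did not pass in Leydig-like cells, which hold most of its UMIs. It was at 2341 and 3299 CPM in HFD and 3252 and 3113 CPM in ND, so the HFD libraries lay on both sides of the ND libraries. The log2 ratio was -0.17 (SE 0.182; edgeR adjusted p 0.639). The value rests on which HFD library is used: it was 0.04 without HFD 1 and -0.45 without HFD 2. In the Leydig-like cells of the single start it was -0.03 (edgeR adjusted p 0.909). The summed level of the 8 Leydig markers in the class was, of the plain class total, 20711 and 25622 CPM in HFD and 30752 and 26595 CPM in ND, and in the single start 26187 and 26715 against 31489 and 27649. These sums moved with Aldh1a1 in HFD 1, and their part in its level was not tested.

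In the other somatic classes Aldh1a1 had ratios of 0.13 (SE 0.199) in fibroblast-like and 0.34 (SE 0.182) in Sertoli-like cells, with edgeR adjusted p of 0.911 and 0.725. In macrophage-like cells it had 29 and 18 UMIs in HFD and 11 in each ND library, a ratio of 1.15 (SE 0.387; edgeR adjusted p 0.238). Without HFD 2 the edgeR adjusted p was 0.0489, at a ratio of 1.49, and without HFD 1 the ratio was 0.70 (edgeR adjusted p 0.775). A single cell held 21 of the 29 UMIs of HFD 1. Without the top cell of each library 8 and 15 UMIs were left in HFD and 9 in each ND library, so the diets overlapped and the gene did not pass the filter on low counts. The summed level of the 8 Leydig markers in the same cells was 628 and 222 CPM in HFD and 161 and 109 CPM in ND, with Lhcgr at 0, and without those cells 243 and 187 CPM against 156 and 109 CPM. It moved with Aldh1a1, and its part in the difference was not tested.

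Aldh1a2 did not pass in any class. In pachytene-like and later spermatocytes it was at 130 and 134 CPM in HFD and 136 and 134 CPM in ND, and its log2 ratio was -0.04 (SE 0.041; edgeR adjusted p 0.798). In round-spermatid-like cells the ratio was also -0.04 (SE 0.040; edgeR adjusted p 0.708), and in weaker-scoring early-spermatocyte-like cells it was 0.05 (edgeR adjusted p 0.869). In elongating-spermatid-like cells Aldh1a2 had 22.0 and 23.1 CPM in HFD and 16.6 and 22.1 CPM in ND. The ratio there was 0.23 (edgeR adjusted p 0.233), and without ND 2 it was 0.44 (edgeR adjusted p 0.00251). The sum of the pachytene markers in these cells, given above with Rdh10, was likewise higher in HFD, and its part in the ratio was not tested. In macrophage-like cells it had 14 and 17 UMIs in HFD and 27 in each ND library, a ratio of -0.74 (edgeR adjusted p 0.560).

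Cyp26b1 in fibroblast-like cells was at 386 and 475 CPM in HFD and at 839 and 518 CPM in ND. Both HFD libraries lay below both ND libraries, and the log2 ratio of -0.64 (SE 0.179) just missed the threshold (edgeR adjusted p 0.0578, unadjusted p 0.000374). ND 1 decided the size: without it the ratio was -0.27 (edgeR adjusted p 0.992), and without ND 2 it was -0.95 (edgeR adjusted p 0.00247). With the Cyp26b1 UMIs of the top cell of each library taken out, the edgeR adjusted p was 0.0314. At the finer clustering it was 0.0474, while DESeq2 gave 0.999. In the same cells the summed level of the 8 fibroblast markers was, of the plain class total, 2394 and 3330 CPM in HFD and 4162 and 3668 CPM in ND, and that of the 7 peritubular myoid markers 146 and 135 CPM against 291 and 262 CPM. The 10 elongating spermatid markers summed there to 14213 and 15640 CPM in HFD and 11844 and 10952 CPM in ND. The fibroblast and peritubular myoid sums were lower in HFD, as Cyp26b1 was, and the elongating spermatid sum was higher, and their part in its difference was not tested.

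In spermatogonia-like cells, with 46 to 69 cells per library, edgeR called 0 of 4 tested genes, of which 1 had an unadjusted p under 0.05. That gene was Stra8, at 335 and 312 CPM in HFD and 436 and 404 CPM in ND, and its log2 ratio was -0.38 (SE 0.171; edgeR adjusted p 0.882, unadjusted p 0.0293). Crabp1 was at 257 and 237 CPM in HFD and 271 and 321 CPM in ND, a ratio of -0.25 (SE 0.193; edgeR adjusted p 0.980). Rbp4 was at 99.8 and 129 CPM in HFD and 96.2 and 79.3 CPM in ND, a ratio of 0.36 (SE 0.286; edgeR adjusted p 0.980). Aldh1a2 was at 42.8 and 41.6 CPM in HFD and 55.0 and 51.5 CPM in ND, a ratio of -0.34 (SE 0.426; edgeR adjusted p 0.990). The diets did not overlap for these 4 genes, and none of the differences was called. How many of all genes in the class did not overlap was not counted, so no result is read from the lack of overlap. The summed level of the 9 spermatogonia markers was 1365 and 1066 CPM in HFD and 1276 and 1261 CPM in ND, so the diets overlapped.

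A list of 48 other retinoid genes set these results in the pathway. In the whole testis 41 were tested by edgeR's quasi-likelihood test, and 5 rose and 13 fell in HFD, beside 15.3% and 18.9% of all genes. The median log2 ratio was -0.15 over the list and -0.02 over all genes. Among the genes that fell most were Tgm2, a transglutaminase that retinoic acid induces in many cells, at -0.93, the carboxylesterase Ces1d at -0.87, the stem cell factor receptor Kit at -0.56 and the dehydrogenase Dhrs7 at -0.53. These 4 had their highest class level in Leydig-like cells. For Kit the spermatogonia-like mean of 113 CPM of the plain class total lay inside the Leydig-like range by library, 96.2 to 159 CPM. The genes that rose were the alcohol dehydrogenase Adh4 at 0.30, Dgat1, which can esterify retinol, at 0.26, the retinol dehydrogenases Rdh14 and Rdh11 at 0.17 and 0.15, and the receptor Rxrb at 0.17. Dgat1 and Rdh11 were highest in pachytene-like and later spermatocytes, at 136 and 373 CPM of the plain class total.

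Within Leydig-like cells edgeR called 0 of 24 listed genes, 8 of which had an unadjusted p under 0.05. Among all genes tested there, 2238 of 12049 had such an edgeR p. DESeq2, which gave part of the listed genes no adjusted p, called 0. Ces1d had a log2 ratio of -0.58, Tgm2 of -0.75 and Kit of -0.52, with edgeR adjusted p of 0.101, 0.0986 and 0.145. The whole-testis sums in which these 3 genes fell hold these same UMIs, so the ratios are not a separate result. In the Leydig-like cells of the single start, edgeR called 4.84% of all genes, with 293 of 11622 lower in HFD. Of 23 listed genes it called 4, all lower in HFD, these 3 among them. There Ces1d had a log2 ratio of -0.42, Tgm2 of -0.58 and Kit of -0.36, with edgeR adjusted p of 0.00126, 0.0405 and 0.0444. The whole-testis sums hold these UMIs too, so the calls of the single start are not a separate result either. Aldh1a1 in the same cells overlapped between the diets in both sets of cells. A difference between the change of these 3 genes and that of Aldh1a1 was not tested.

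In 2 other classes a listed gene passed the edgeR test. The short-chain dehydrogenase Dhrs4 rose by 0.35 in elongating-spermatid-like cells, where 1 of 26 genes passed (edgeR adjusted p 0.0251), a count near the 3.66% of all genes called higher there. Dhrs4 had its highest class level in pachytene-like and later spermatocytes, at 113 CPM of the plain class total, and the pachytene marker sum given above for elongating-spermatid-like cells moved with it, and its part in the difference was not tested. The fatty acid binding protein Fabp5, which can carry retinoic acid, rose from 5 and 2 UMIs in ND to 19 in each HFD library in macrophage-like cells, where 1 of 8 passed, beside 1.38% of all genes called either way (log2 ratio 2.46; edgeR adjusted p 0.0076). Fabp5 had its highest class level in Leydig-like cells, at 166 CPM of the plain class total, and the Leydig marker sum given above for macrophage-like cells moved with it. The part of that sum in the Fabp5 difference was not tested. DESeq2 gave an adjusted p of 0.106 for Dhrs4 and none for Fabp5. In the 10 classes with none called, Leydig-like cells included, edgeR called 0 of 139 pairs, 17 of which had an unadjusted p under 0.05. Of these 17, 8 were the Leydig-like ones. Among all genes tested, 266 of 5526 in weaker-scoring elongating-spermatid-like and 2238 of 12049 in Leydig-like cells had such an edgeR p, with the remaining shares between. DESeq2, which gave part of the 139 pairs no adjusted p, called 0. Of the receptors, Rara, Rarg and Rxrb were highest in spermatogonia-like cells, at 20.9, 16.0 and 72.7 CPM of the plain class total, and Rarb did not pass 1.43 CPM in any class. For Rara the macrophage-like and Sertoli-like means, both 16.1 CPM, lay inside the spermatogonia-like range by library, 15.1 to 28.7 CPM. Cyp26a1 and Cyp26c1, the relatives of Cyp26b1, had 14 and 0 UMIs in all.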

How the data were processed

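RNA of testis cells was measured with 10x Chromium 3′ droplets in 2 HFD and 2 ND libraries. The deposited matrices hold for every gene and barcode the raw count of UMIs, not normalized, per the file headers, which name software version 3.0.2. The genome build is mm10 per the submitters' processing notes. The aligner, the annotation and the cell filter are not given in the sources used here.

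Cells needed 200 detected genes and a mitochondrial share of UMIs of 20% or less, and doublets were called with scanpy's Scrublet (expected rate 0.1) in each library and left out. Cells were clustered with scanpy 1.11.5 (2000 variable genes less the retinoid genes, 30 principal components, 15 neighbours, Leiden resolution 1) from 5 random starts. Clusters with mixed scores were clustered again, and clusters were named by their mean marker score. The naming thresholds, and the use of 5 starts with agreement of at least 3, were set after the clusters had been seen, since single starts gave different class sizes. A class needed 30 cells in every library to be tested.

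UMIs were summed per library and class. The main test was edgeR 4.0.16 (TMM factors, filterByExpr and a quasi-likelihood test of HFD against ND without a block, Benjamini-Hochberg over all genes of the fit, threshold 0.05), checked on simulated counts, and DESeq2 1.42.0 was an alternative. The labels state no pairing of same-numbered libraries, and 2 pairs cannot show whether there is one. Deviations of same-numbered libraries correlated at 0.187 over the whole testis and at -0.237 to 0.107 in the classes. The 9 genes, the marker lists and the list of 48 retinoid genes were chosen with earlier results of these data known, and the names of genes follow rules. All 9 are named. Of the list, up to 5 genes per direction are named that passed the test with the diets apart, ranked by log2 change, with 3 genes in Leydig-like cells, the receptors and the Cyp26 relatives named besides. As most alike, the 3 genes with the highest Pearson correlation of log2(mean CPM + 1) over the 12 classes are named, among genes of at least 20 CPM in a class, for members with at least 200 UMIs. Of the genes these rules name, 2 are not reported here. Positions are from GENCODE M21 and promoter sequences from RefSeq.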

Additional observations from a re-analysis of the deposited data

How the results depend on the processing

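Of the 9 whole-testis results, 111 of 116 alternatives kept the direction and the side of the threshold. Of the 40 results within classes, 524 of 580 did, and of the 45 alternatives for the levels in the highest class 41 stayed within 1 SD. Those that moved were Aldh1a1 with doublets kept (2374 CPM) and Aldh1a2 with doublets kept (138.0 CPM), at resolution 2 (140.3 CPM) and with 1 random start (126.4 CPM). The number of genes among the 9 called in the whole testis was 5, and 4 to 5 when 1 library was left out. Of all genes, 8724 were called there, and 5098 to 8440 without 1 library, the fewest without HFD 2. Within classes 1 pair of gene and class was called. There was 0 with DESeq2, with plain totals, without the low-count filter, with doublets kept and with 1 random start, and there were 2 without the top cell and 2 at resolution 2. The edgeR fits without the top cell took out that cell's UMIs of the gene and kept its other UMIs. Without 1 library there were 0 to 3, the most without ND 2. Of all genes 1795 were called over the classes, against 707 with DESeq2, 3320 at resolution 2 and 3718 with 1 random start, and 1081 to 5007 without 1 library, the fewest without HFD 1 and the most without ND 1. The cause was not tested. Pairs that fell under the low-count filter in an alternative, such as Aldh1a1 in macrophage-like cells without the top cell, gave no value there. A fit without 1 library leaves 1 sample in an arm, which is taken to vary like the other diet's.

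With the replicate number as a block, 5 of the 9 genes and 10172 of all genes were called in the whole testis, and within classes 0 pairs and 2034 genes, the lost pair being Rdh10 in elongating-spermatid-like cells (edgeR adjusted p 0.0631). With the numbers crossed in Leydig-like cells, where deviations correlated at -0.237, 909 genes were called against 102 without a block, a fit chosen after seeing the data.

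With plain totals the numbers of genes called in each direction changed. In elongating-spermatid-like cells 809 were higher and 193 lower against 549 and 494, in round-spermatid-like cells 273 and 84 against 155 and 139, in Leydig-like cells 39 and 64 against 26 and 76 (46 and 80 with median-ratio factors) and in Sertoli-like cells 2 and 14 against 2 and 5.

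None of the called results changed direction. Log2 ratios that did were all short of the threshold. With doublets kept, these were Rbp4 (0.027) in round-spermatid-like, Stra6 (0.0088) in pachytene-like, Aldh1a1 in weaker-scoring early-spermatocyte-like (0.18) and elongating-spermatid-like (-0.21) and Aldh1a2 in fibroblast-like cells (0.15). At resolution 2 they were Stra6 (0.32) and Aldh1a2 (0.0044) in pachytene-like cells, and Aldh1a2 in fibroblast-like (0.00076) and lymphocyte-like cells (-0.31). With 1 random start, Rbp4 (0.043) and Stra6 (0.039) in round-spermatid-like, Stra6 (0.065), Aldh1a1 (0.031) and Aldh1a2 (0.0059) in pachytene-like and Aldh1a2 in Sertoli-like cells (-0.031) did so. Aldh1a2 in Leydig-like cells, at -0.00026, was 0.011 with DESeq2, with median-ratio factors and at a mitochondrial limit of 10%, 0.020 without the top cell, 0.023 at resolution 2, 0.043 with plain totals, 0.068 with 1 random start and 0.085 with doublets kept.

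Leaving out 1 library gave ranges that crossed 0 for Rbp4 in the whole testis (-0.061 to 0.12), in early-spermatocyte-like (-0.81 to 0.20) and in elongating-spermatid-like cells (-0.15 to 1.19), and for Stra6 in pachytene-like cells (-0.47 to 0.25). For Rdh10 they did in Leydig-like (-0.51 to 0.16) and pachytene-like cells (-0.43 to 0.29), and for Aldh1a1 in Leydig-like (-0.45 to 0.044) and elongating-spermatid-like cells (-0.17 to 0.21). For Aldh1a2 they did in Leydig-like (-0.074 to 0.058), early-spermatocyte-like (-0.46 to 0.16), fibroblast-like (-0.64 to 0.46) and lymphocyte-like cells (-0.028 to 0.25), for Crabp2 in round-spermatid-like cells (-0.88 to 0.38) and for Stra8 in early-spermatocyte-like cells (-0.32 to 0.12). Depth limits Stra6 and Crabp2, with 266 and 87 UMIs in all, and the spermatogonia-like class, with at most 69 cells in a library.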
